A study of Rattus norvegicus with 115 samples.

Results

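Csn2, Csn3, Csn1s1, Lalba, Wap, Btn1a1 and Elf5 are genes of the milk-secreting alveolar cells of the mammary gland, and their RNA was followed here in carcinogen-induced mammary tumours of rats. All 7 symbols were found among the 17455 rows of the count table. They were described over 61 epithelial libraries, which had less than 150 CPM (counts per 1000000 counts of the library) of Ptprc, the leukocyte common antigen CD45, and at least 300 CPM of Epcam, an epithelial adhesion molecule. These libraries came from 44 tumours of 32 rats. Another 44 libraries with at least 300 CPM of Ptprc were taken as leukocyte libraries and used to measure carry-over of the same RNA. Next to the Epcam limit lay a library of tumour C2T1 at 381 CPM, which was kept, and a library of tumour C5T1 at 18.98 CPM, which was not. Next to the Ptprc limits lay tumour P28T1 at 124 CPM, the highest epithelial value, and tumour P5T3 at 486 CPM, the lowest leukocyte value.

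The rats were virgin Sprague Dawley animals given N-nitroso-N-methylurea (NMU), a DNA-alkylating mammary carcinogen, at 50 mg/kg in 1 to 3 intraperitoneal injections at 35 to 53 days of age, per the labels. In an immunotherapy cohort, treatment began once a tumour could be felt. Its epithelial libraries came from 6 rats given anti-PD-L1 antibody plus LY2157299 (13 libraries of 8 tumours), 7 rats given anti-PD-L1 alone (16 libraries of 10 tumours), 4 rats given LY2157299 alone (8 libraries of 6 tumours) and 7 rats given vehicle (14 libraries of 10 tumours). Anti-PD-L1 blocks a ligand that restrains T cells, and LY2157299 (LY below) inhibits the kinase of the TGF-beta type I receptor. A separate characterization cohort gave 10 libraries of 10 tumours from 8 rats with NMU but no treatment. The deposited sample table called 12 of the treated or vehicle tumours stable and 21 growing. Tumour codes name the rat and then the tumour, so P34T1 is a tumour of rat P34.

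The labels list sorts called Ep, DN and CD45, but a column header gives only the tumour, so libraries were classed by Ptprc and Epcam and the epithelial class may hold both of the first sorts. Epithelial totals ran between 2353564 and 26635144 counts. The summed CPM of 8 luminal markers ran between 4239 and 36120 in epithelial libraries and between 49.3 and 1653 in leukocyte libraries, which fitted the class names. Fibroblast RNA differed widely among epithelial libraries: the summed CPM of Col1a1, Col3a1, Dcn, Pdgfra and Lum ran between 0.971 and 77936. Tumour P22T2 had 3 columns although the labels list it in 2 sorts, and P22T1 had 2 columns for 3 listed sorts, so a column may stand under the wrong tumour of rat P22. Both are LY tumours. Fits of the members and leukocyte results that P22T2 moves are given with and without it. In libraries made from many cells, fewer cells of a type and less RNA per cell cannot be told apart.

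Caseins, the calcium-binding proteins of milk, are encoded by Csn2 (beta-casein), Csn1s1 (alpha-S1-casein) and Csn3 (kappa-casein, which keeps casein micelles in suspension). Lalba encodes alpha-lactalbumin, the cofactor that turns a galactosyltransferase into lactose synthase. Wap encodes whey acidic protein, Btn1a1 encodes butyrophilin, a protein of the membrane around milk fat droplets, and Elf5 encodes an ETS-family transcription factor needed for alveolar development in mice. In the gland these genes are switched on in pregnancy and lactation, when prolactin acts through its receptor, JAK2 and STAT5, and STAT5 dimers bind DNA at the motif TTCNNNGAA.

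The casein genes lie side by side on rat chromosome 14. RefSeq (GRCr8) gave a start region for 6 of the 7 members. Below are the stretches 130 to 71 bases before the annotated gene start, 5′ to 3′ on the gene's strand, for the caseins. Capitals mark TTCNNNGAA, which reads the same on both strands. The stretches are Csn2 at chr14:20601694-20601753 (plus strand), Csn1s1 at chr14:20638920-20638979 (minus strand), Csn1s2a at chr14:20574542-20574601 (minus strand), Csn1s2b at chr14:20545689-20545748 (minus strand) and Csn3 at chr14:20439901-20439960 (minus strand).
Csn2: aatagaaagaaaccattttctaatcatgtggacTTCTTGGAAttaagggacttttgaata
Csn1s1: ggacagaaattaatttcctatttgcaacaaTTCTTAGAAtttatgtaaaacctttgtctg
Csn1s2a: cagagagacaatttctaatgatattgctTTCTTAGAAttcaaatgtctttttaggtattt
Csn1s2b: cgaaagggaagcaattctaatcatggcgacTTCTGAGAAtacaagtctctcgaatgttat
Csn3: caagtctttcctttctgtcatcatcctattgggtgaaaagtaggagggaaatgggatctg
The motif began 97 bases before the start of Csn2, 100 before Csn1s1 and 100 before Csn1s2b, and at a like distance, as the stretch shows, before Csn1s2a. Csn1s2a and Csn1s2b are further alpha-casein genes of the rat. It was not found in the 300-base start regions of Csn3, Lalba, Wap or Btn1a1, where the regions of Lalba and Btn1a1 lie inside the annotated span of the gene. Of 33469 rat start regions of that length, 2970 (8.87%) held the motif anywhere and 201 (0.601%) held it starting 110 to 91 bases before the gene start. A match is a run of letters and says nothing of binding in these tumours.

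Milk gene RNA was present in nearly all tumours, at levels that differed by orders of magnitude between them. Csn3, Csn1s1, Lalba, Btn1a1 and Elf5 had counts in all 61 epithelial libraries. Csn3 reached at least 1000 CPM in 55 libraries, Lalba in 38 and Csn1s1 in 22. For Csn2, 6 libraries had no count, 11 had 3 counts or fewer, and 4 reached at least 1000 CPM. The libraries without a count of Csn2 were of tumours C3T1, C9T1, C17T4, P24T2, P5T2 and P36T2, where 3 counts would have been 0.174 to 0.854 CPM. Wap reached at least 100 CPM in 2 libraries, both of tumour P34T1. Between the lowest and the highest rat, levels differed 134-fold for Csn3, 352-fold for Csn1s1, 108.9-fold for Lalba, 76.5-fold for Btn1a1 and 65.2-fold for Elf5.

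Counts summed over the epithelial libraries of a rat gave the levels by arm. Csn3 had a lowest, median and highest level of 1757, 10872 and 35430 CPM in the 6 combination rats and of 1996, 6211 and 15834 CPM in the 7 anti-PD-L1 rats. The LY rats P19, P21, P17 and P22, in this order throughout, had 4076, 9722, 3445 and 14551 CPM of Csn3. The 7 vehicle rats had 265, 2183 and 14651 CPM, again as lowest, median and highest. Medians of Csn3 were thus ordered combination, LY (6899 CPM), anti-PD-L1 and vehicle, and the range of each arm overlapped that of every other. Untreated tumours had 711, 2575 and 17146 CPM over 8 rats.

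Csn1s1, alpha-S1-casein, had lowest, median and highest levels of 213, 1097 and 18006 CPM in combination rats, 130, 856 and 2903 CPM in anti-PD-L1 rats, and 56.9, 193 and 1278 CPM in vehicle rats, while LY rats had 462, 885, 224 and 3130 CPM. Lalba, the lactose synthase cofactor, ran 528, 2851 and 11400 CPM in combination rats, 469, 2383 and 4544 CPM in anti-PD-L1 rats, and 104.7, 566 and 3756 CPM in vehicle rats. LY rats had 2361, 2281, 521 and 3710 CPM of Lalba. For both genes the arms overlapped.

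Csn2, beta-casein, was low in most rats and very high in a few. Its lowest, median and highest levels were 11.9, 17.6 and 37989 CPM in combination rats, 0.0635, 3.13 and 324 CPM in anti-PD-L1 rats, and 0.0650, 7.51 and 1006 CPM in vehicle rats. LY rats had 1.58, 12.9, 28.9 and 391 CPM. The rats that stood far above the others of their arm were P34 (37989 CPM) and P23 (3714 CPM) of the combination arm, P29 (324 CPM) of the anti-PD-L1 arm, P22 (391 CPM) of the LY arm and P10 (1006 CPM) of the vehicle arm. Untreated rats had 0, 3.76 and 44.3 CPM.

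Wap, whey acidic protein, ran 2.61, 13.5 and 1530 CPM in combination rats, 1.01, 9.63 and 35.7 CPM in anti-PD-L1 rats, and 1.04, 2.26 and 20.2 CPM in vehicle rats, with 6.55, 14.4, 1.44 and 26.2 CPM in LY rats. Btn1a1, the milk fat droplet protein, averaged 183 ± 117 CPM in combination rats (SD, n = 6), 148 ± 132 in anti-PD-L1 rats (n = 7), 153 ± 76.7 in LY rats (n = 4) and 99.8 ± 87.02 in vehicle rats (n = 7). Elf5, the transcription factor, averaged 63.2 ± 52.3 CPM in combination rats, 46.6 ± 45.4 in anti-PD-L1 rats, 43.2 ± 31.7 in LY rats and 25.1 ± 19.8 in vehicle rats. For each of these 3 genes every arm overlapped every other, as the plot by tumour shows.

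**Figure D1:**
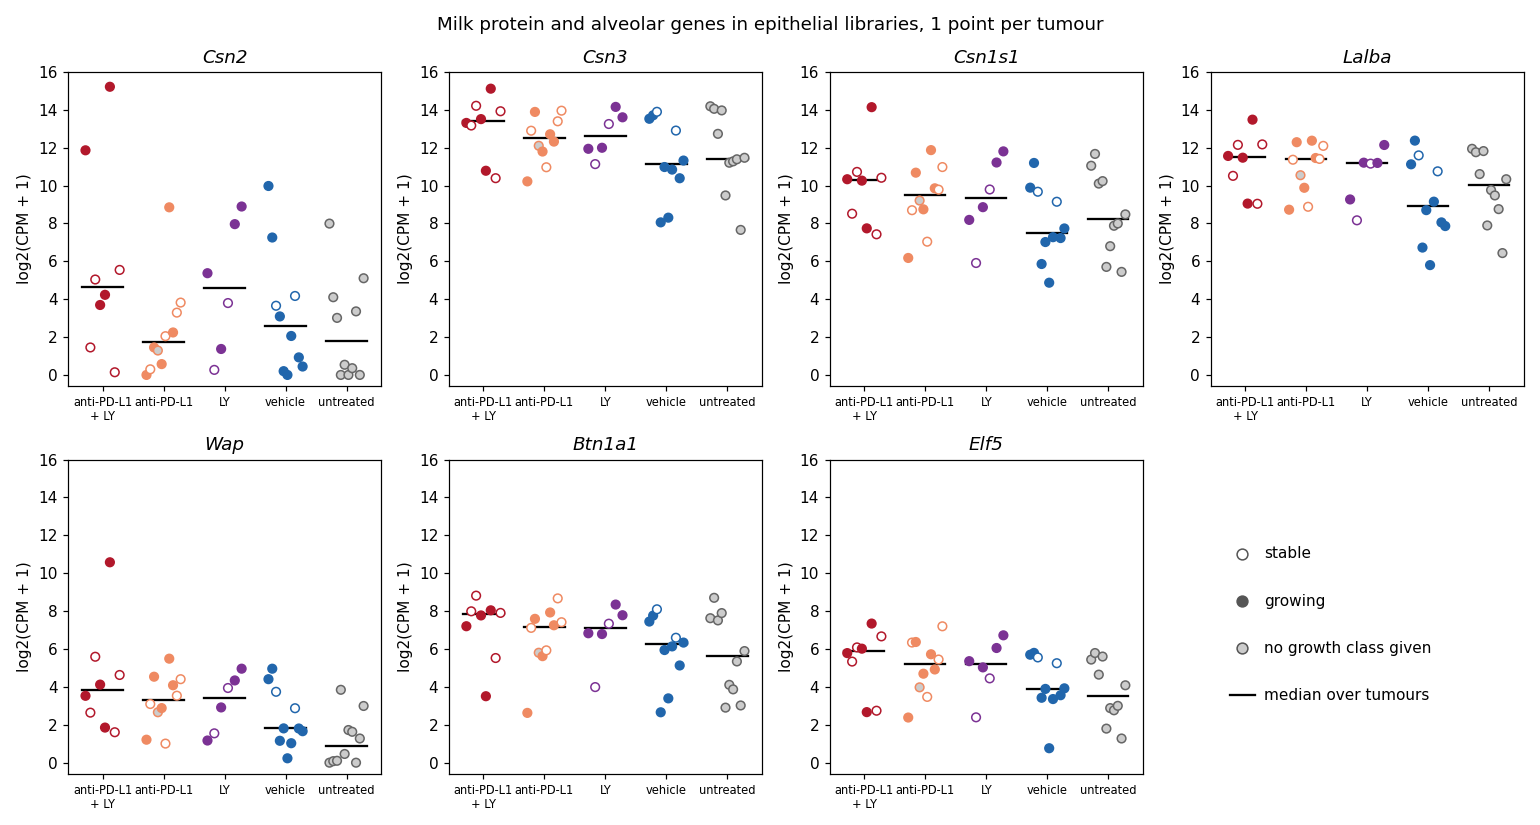
Level of each gene as log2(CPM + 1), with 1 point per tumour (counts summed over its epithelial libraries), by arm; open points are stable tumours, filled points growing ones, grey points tumours with no growth class, and bars medians. Csn2 spreads from 0 to 37989 CPM, and the tumour at the top for Csn2, Csn3, Csn1s1, Lalba and Wap is P34T1.

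Whether treatment changed these genes in epithelial cells was tested on counts summed per rat with edgeR's quasi-likelihood test and Benjamini-Hochberg adjustment over 13614 genes. Combination rats had higher estimates than vehicle rats for all 7 genes, and none passed. The log2 fold change was 5.24 for Wap (SE 1.42), 5.29 for Csn2 (SE 2.35), 3.02 for Csn1s1 (SE 1.07), 1.54 for Lalba (SE 0.80), 1.26 for Elf5 (SE 0.71), 1.15 for Csn3 (SE 0.78) and 0.77 for Btn1a1 (SE 0.72). Adjusted p was 0.883 for Wap, Csn2, Csn1s1 and Lalba, 0.898 for Elf5, 0.922 for Csn3 and 0.952 for Btn1a1. The share of all tested genes called was 0%, so 0 of 7 members stands beside 0 of 13614 genes. At an unadjusted p under 0.05 there were 3 members and 752 genes (5.52%), and DESeq2 called 2 genes, neither a member. DESeq2 gave Wap no adjusted p in any of the 4 comparisons, so it made no call on Wap. The members' median was 1.54 and that of all genes was -0.016.

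Rat P34 set the size of most of these estimates, though not that of Btn1a1. Without it the log2 fold change was 0.60 for Wap, 1.78 for Csn2, 0.68 for Csn1s1, 0.64 for Lalba, 0.59 for Elf5, 0.42 for Csn3 and 0.56 for Btn1a1, all with an adjusted p of 0.999 by edgeR. The Btn1a1 estimate was lowest without combination rat P31, at 0.51. Leaving out vehicle rat P10 gave 9.17 for Csn2. With batch as a term the Csn2 value was 8.23, against 10.15 in batch 2 alone and 1.98 in batch 3 alone, and Wap had 6.23 in batch 2 alone and 0.067 in batch 3 alone. Rat P34 belonged to batch 2 of the sample table.

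Neither agent alone gave a difference in these genes that passed. Anti-PD-L1 rats against vehicle rats had log2 fold changes of 1.06 for Csn1s1 (SE 0.98), 0.85 for Elf5 (SE 0.68), 0.79 for Lalba (SE 0.76), 0.62 for Wap (SE 1.19), 0.46 for Btn1a1 (SE 0.70), 0.19 for Csn3 (SE 0.74) and -2.05 for Csn2 (SE 2.02), with an adjusted p of 1.00 for each by edgeR. edgeR called 0% of 13614 genes, 368 had an unadjusted p under 0.05 (2.70%), none of them a member, and DESeq2 called 0. LY rats against vehicle rats had 1.28 for Csn1s1 (SE 1.11), 0.74 for Lalba (SE 0.87), 0.74 for Elf5 (SE 0.78), 0.66 for Wap (SE 1.37), 0.58 for Btn1a1 (SE 0.80), 0.44 for Csn3 (SE 0.86) and -0.79 for Csn2 (SE 2.34), with adjusted p between 0.881 and 0.958 by edgeR. Here too edgeR called 0%, with 850 genes (6.24%) and 0 members at an unadjusted p under 0.05, while DESeq2 called 12 genes and no member. The sign of Csn2 turned on vehicle rat P10: without it the value was 1.83 for anti-PD-L1 and 3.09 for LY. Without anti-PD-L1 rat P29 it was -5.41 for anti-PD-L1, without LY rat P22 it was -3.67 for LY, and without the P22T2 columns it was -1.25 for LY. The other LY estimates without the P22T2 columns were 1.11 for Csn1s1, 0.80 for Btn1a1, 0.66 for Csn3, 0.57 for Elf5, 0.53 for Lalba and 0.49 for Wap. The 3 comparisons share the vehicle rats. The 95% intervals were wide, from -1.71 to 2.95 for Wap and from -1.27 to 1.65 for Csn3 in anti-PD-L1 rats, so changes of several-fold in either direction lay within them.

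**Figure D2:**
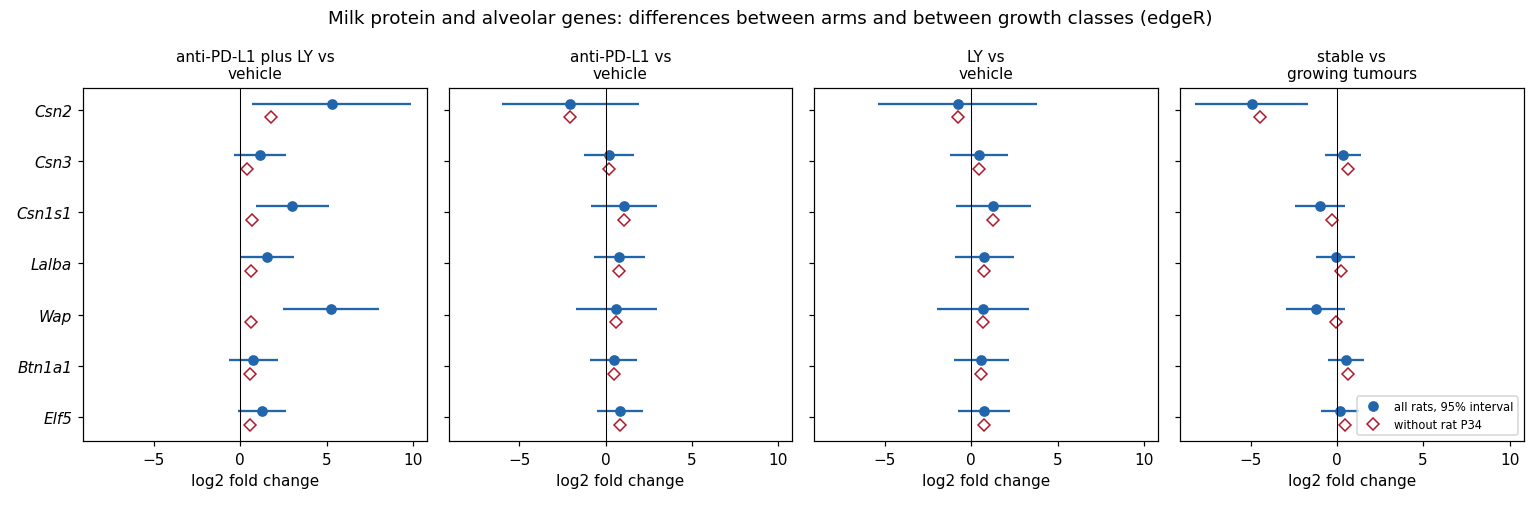
Log2 fold change of each gene in 4 comparisons; blue points show edgeR estimates from all rats with normal 95% intervals, and red diamonds the estimates without rat P34. In the combination panel Wap is at 5.24 with all rats and 0.60 without P34, while the panels for single agents hardly move.

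No stable tumour had more than 45.7 CPM of Csn2. Among stable tumours the lowest, median and highest Csn2 levels were 0.102, 10.2 and 45.7 CPM (n = 12), against 0, 7.51 and 37989 CPM among growing tumours (n = 21). At least 100 CPM was found in 7 of 21 growing and 0 of 12 stable tumours. That limit was not set in advance and lies above the highest stable level, so these counts carry no test. The growing tumours above it were P10T1, P22T1, P22T2, P23T1, P29T1, P34T1 and P39T1 of 6 rats, and without P22T2 they were 6 of 20. The medians were close, and the groups overlapped below 45.7 CPM.

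In edgeR, with counts summed per tumour and the arm as a term, Csn2 was lower in stable than in growing tumours by a log2 fold change of -4.93 (SE 1.67, 95% interval -8.19 to -1.67), with an adjusted p of 0.612 over 13342 genes. edgeR called 0% of genes. At an unadjusted p under 0.05 there were 973 genes (7.29%) and 1 member, Csn2. DESeq2 gave -4.89 for Csn2 with an adjusted p of 0.0430 and called 19 genes, so the call depended on the tool. Over the other 34 settings, which include leaving out each rat, the adjusted p ran between 0.200 and 1. Leaving out each rat in turn kept the edgeR estimate between -5.23 and -3.85, and without the P22T2 columns it was -4.77. With batch as a term it was -5.00 (adjusted p 0.737 by edgeR), and within batches it was -2.45 in batch 2 and -4.97 in batch 3, where neither passed. Tumours of 1 rat entered as separate units. In the 3 rats with both a stable and a growing tumour (P17, P24 and P39), the fit with the rat as a block gave -4.41 for Csn2 (adjusted p 1.00 by edgeR, 2 residual degrees of freedom). Stable tumours were also smaller, with a lowest, median and highest deposited size of 3, 6 and 24 against 10, 25 and 47 in growing tumours, in a unit not stated. Of the stable tumours 9 of 12 were in batch 2, against 9 of 21 growing ones, and the part of size in the Csn2 difference was not tested.

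The other members did not pass by edgeR or limma, nor by DESeq2 apart from Wap, to which it gave no adjusted p. Csn3 had a lowest, median and highest level of 1338, 9461 and 18940 CPM in stable tumours and 265, 4076 and 35430 CPM in growing tumours, with a log2 fold change of 0.35 (SE 0.54, adjusted p 0.884 by edgeR). Btn1a1 ran 14.9, 165 and 450 CPM in stable tumours and 5.19, 113 and 325 CPM in growing ones (log2 fold change 0.51, SE 0.53). Elf5 had 0.18 (SE 0.56), Lalba -0.075 (SE 0.57), Csn1s1 -0.99 (SE 0.73) and Wap -1.22 (SE 0.88). Without rat P34 the estimate was -0.050 for Wap and -0.31 for Csn1s1, while that for Lalba turned to 0.25. Summed fibroblast marker CPM had medians of 696 in stable and 2595 in growing tumours, with ranges of 13.5 to 38723 and 165 to 40728, and its part in these values was not tested.

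Tumours of the same rat could differ widely in Csn2. The median absolute difference in log2(CPM + 1) was 3.59 over 12 pairs of tumours of 1 rat and 3.00 over 91 pairs of rats of 1 arm, but 0.81 over 17 pairs of libraries of 1 tumour. In anti-PD-L1 rat P29, tumour P29T1 had 460 CPM and P29T2 3.73 CPM. In combination rat P36, both tumours were stable, and P36T3 had 45.7 CPM while P36T2 had 0.102 CPM. In LY rat P17, stable tumour P17T3 had 0.203 CPM and growing tumour P17T1 had 40.4 CPM. In vehicle rat P39, stable tumour P39T3 had 11.6 CPM and growing tumour P39T1 had 152 CPM. In anti-PD-L1 rat P24 the order was the other way, with 0.229 CPM in stable tumour P24T3 and no count in growing tumour P24T2. LY rat P22 had high values in both tumours, 474 CPM in P22T2 and 248 CPM in P22T1. For Csn3 the median difference was 0.99 between tumours of 1 rat, 1.64 between rats and 1.12 between libraries of 1 tumour. These pairs share rats and tumours and are given as a description.

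Tumour P34T1, a growing tumour of the combination arm, had more RNA of most of these genes than any other tumour. The 7 genes made up 10.5% of its epithelial counts, and the next tumour, P31T3, had 2.58%. Its 2 epithelial libraries had 43050 and 24873 CPM of Csn2, 19654 and 13738 CPM of Csn1s1, and 1569 and 1428 CPM of Wap. Both libraries were thus high. Relative to the highest of the other 31 rats, P34 had 42.9-fold more Wap, 10.2-fold more Csn2, 5.75-fold more Csn1s1, 2.51-fold more Lalba, 2.07-fold more Csn3 and 1.11-fold more Elf5. Btn1a1 was not highest there, with 263 CPM against 408 CPM in anti-PD-L1 rat P30. The summed fibroblast markers were at 1284 CPM in P34T1.

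Other milk genes were also highest in P34. Of 10 further measured genes of secreted milk proteins, 5 had their highest level there, namely Csn1s2a, Csn1s2b, Glycam1, Lpo and Pigr. Csn1s2a, an alpha-S2-type casein, had 2033 CPM in P34 against at most 14.9 CPM in the other rats. Pigr, which carries IgA across the epithelium into milk, had 69.8 CPM against at most 35.2 CPM. Of 16 milk fat genes 4 were highest in P34: Fabp3, a fatty acid binding protein, had 816 CPM against at most 91.3 CPM, Thrsp, a regulator of lipogenesis, 2099 CPM against at most 722 CPM, Scd, a stearoyl-CoA desaturase, 106.6 CPM against at most 44.2 CPM, and Fasn, fatty acid synthase, 963 CPM against at most 811 CPM. Of all 13669 genes tested, 145 (1.06%) had their highest level in P34. This rat was singled out after its values were seen, so these counts carry no test.

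None of the 13 measured genes of prolactin signalling was highest in P34, where 1.06% of all genes were highest. Prlr, the prolactin receptor, had 31.7 CPM there, rank 30 of 32 rats, against a median of 165 CPM in the others. Jak2, the receptor's kinase, had 66.4 CPM against a median of 128 CPM. Cish, a feedback inhibitor induced by STAT5, had 74.8 CPM against a median of 145 CPM, and Stat5a had 290 CPM against a median of 278 CPM. In all, 9 of the 13 prolactin genes and 4 of 4 measured genes of hormone-sensing cells were below the median of the other rats. The share of all genes below that median in P34 is not given here, so these counts have no background to be read against. Of the luminal progenitor genes, Kit, Aldh1a3, Prom1 and Tspan8 were also below it, while Cd14 and Sox10 were above. Esr1, the estrogen receptor, had 0.924 CPM against a median of 12.7 CPM, and Areg, amphiregulin, had 89.8 CPM against 313 CPM. Pgr, the progesterone receptor, had 16.3 CPM against 47.1 CPM, and Foxa1, a factor that opens chromatin for the estrogen receptor, had 39.6 CPM against 52.4 CPM. Luminal markers lay on both sides of that median. Krt8 (4583 CPM against 3414 CPM), Cldn4 and Cldn7 were above it. Epcam (1357 CPM against 2015 CPM), Cdh1 (307 CPM against 551 CPM, rank 28 of 32), Krt18, Krt19 and Cldn3 were below. The basal cell markers Krt5, Krt14, Tp63, Acta2, Myh11 and Oxtr were all above the median of the other rats, and none was highest in P34. Their summed level was 952 CPM in P34T1, against a median of 922 CPM in the 6 combination rats and 428 CPM in the 7 vehicle rats.

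**Figure D3:**
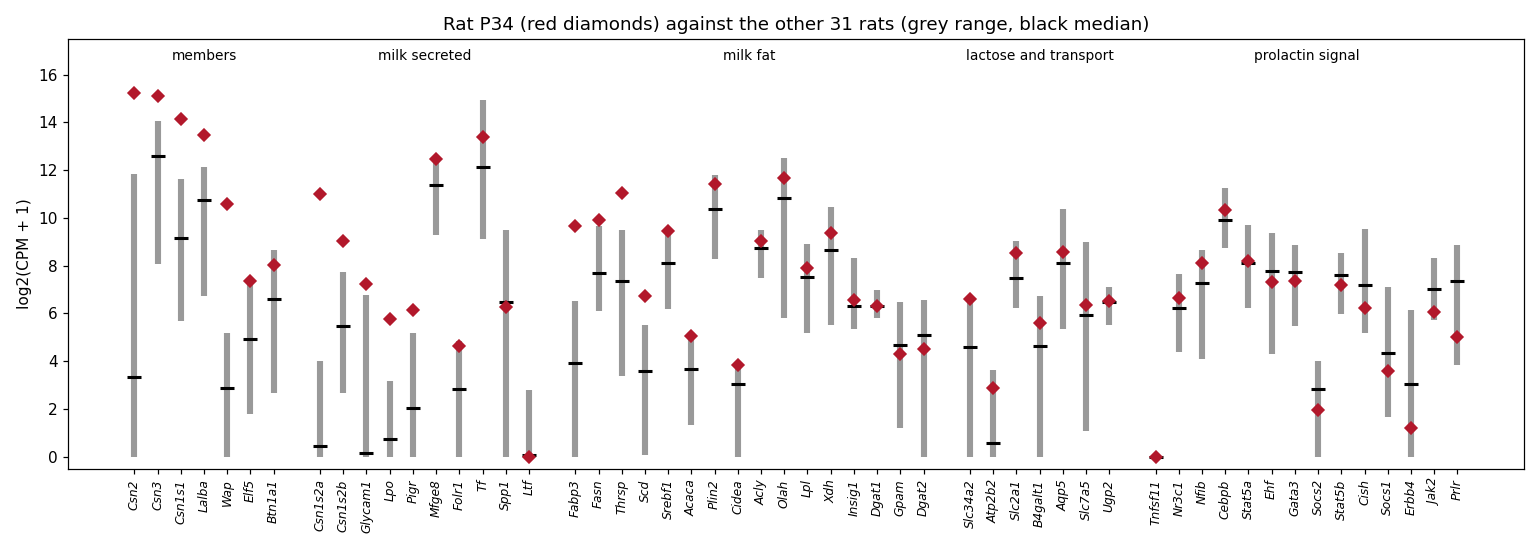
Log2(CPM + 1) of milk and prolactin-signal genes in rat P34 (red diamonds), over the range (grey) and median (black bar) of the other 31 rats. Csn2, Csn1s1, Wap, Csn1s2a, Fabp3 and Thrsp lie above the range of the other rats, and Prlr lies below their median.

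Over rats the 7 genes went up and down together, Csn2 and Wap less tightly than the rest. Correlations were computed on log2 CPM (TMM scaling, prior count 2) for 21 pairs over 32 rats, with permutation p-values adjusted over the 21 pairs. All 21 were above 0 with an adjusted permutation p under 0.05, by Pearson's r and by Spearman's rho. The share of pairs of other genes that would pass is not given here. Csn3 and Lalba had r = 0.95 and rho = 0.93 (permutation p 1e-05 for each, the smallest that 100000 resamples can give, adjusted p 2.1e-05 for r), and r = 0.92 without the 2 rats farthest from the median of Csn3. Csn3 and Elf5 had r = 0.88 and rho = 0.92, and Csn3 and Btn1a1 r = 0.90 and rho = 0.91, with the same permutation p. Csn2 and Csn3 had r = 0.52 and rho = 0.53 (adjusted permutation p 0.00325 and 0.00188), and r = 0.42 without the 2 farthest rats. Csn2 and Csn1s1 had r = 0.68 and rho = 0.62 (adjusted permutation p 7e-05 for r). Csn2 and Wap had r = 0.49, and 0.27 without the 2 farthest rats.

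High Csn3 came with very different Csn2. Untreated rat C17 had 15989 CPM of Csn3 and no count of Csn2, and anti-PD-L1 tumour P26T1 had 15134 CPM of Csn3 and 1.74 CPM of Csn2. Vehicle rat P10 had 11776 CPM of Csn3 and 1006 CPM of Csn2. At the other end, vehicle rat P4 had 265 CPM of Csn3, the lowest of all rats, and 7.51 CPM of Csn2.

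The pooled correlations held in the 24 treated or vehicle rats, kept their direction in batches 2 and 3, and held only in part in untreated rats. In the 24 rats all 21 pairs passed, with r between 0.49 and 0.95. Within batches 2 (17 rats) and 3 (16 rats) all 21 pairs had r above 0, between 0.31 and 0.94 and between 0.69 and 0.96, on log2(CPM + 1). In batch 2 some pairs with Csn2 missed an unadjusted permutation p of 0.05 for r. They were Csn3 (r = 0.50, permutation p 0.0547), Lalba (r = 0.49, permutation p 0.0503) and Btn1a1 (r = 0.31, permutation p 0.172). In the 8 untreated rats 10 of 21 pairs passed by the exact permutation test for r. These were the pairs among Csn3, Csn1s1, Lalba, Btn1a1 and Elf5, with r between 0.89 and 0.98. All 6 pairs with Wap and all 6 with Csn2 missed the threshold for r there. Only 16 of the 21 pairs had r above 0 in untreated rats, the lowest r was -0.74, and 8 pairs passed by rho. Within batch 1 (8 rats, all untreated) 20 of 21 pairs had r above 0. Csn2 and Wap there had r = -0.68 and rho = -0.90 (unadjusted exact permutation p 0.0478 and 0.00536). Several of these rats had no count or very few counts of Csn2 or Wap.

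Wap parted from the caseins in part of the untreated rats, namely C7, C10 and C11. In the 24 treated or vehicle rats Csn1s1 and Wap had r = 0.95 and rho = 0.96 (adjusted permutation p 1.5e-05 for r). In the 8 untreated rats they had r = -0.26 (adjusted exact permutation p 0.752). The difference between these correlations was not tested. Untreated tumours C7T1 and C10T2 had 0 counts of Wap, and C10T4 and C11T1 had 1 count each, although they had 40811, 43781, 296649 and 94128 counts of Csn3. Untreated tumour C17T4, with 238706 counts of Csn3, had 200 counts of Wap. Untreated tumours C3T1, C5T1, C2T1 and C9T1 had 34, 30, 10 and 5 counts of Wap. Their counts of Csn3 were 34777, 35446, 18932 and 705. The leukocyte libraries of C10T2 and C7T1 had 18 and 5 counts of Wap. All of these untreated tumours belonged to batch 1, so tumours with and without Wap counts lay within 1 batch and 1 cohort. Batch 1 holds no treated or vehicle tumour, so against those tumours batch and cohort cannot be told apart. Untreated tumour C9T2, the only one in batch 3, had 34 counts of Wap, at 6.97 CPM.

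**Figure D4:**
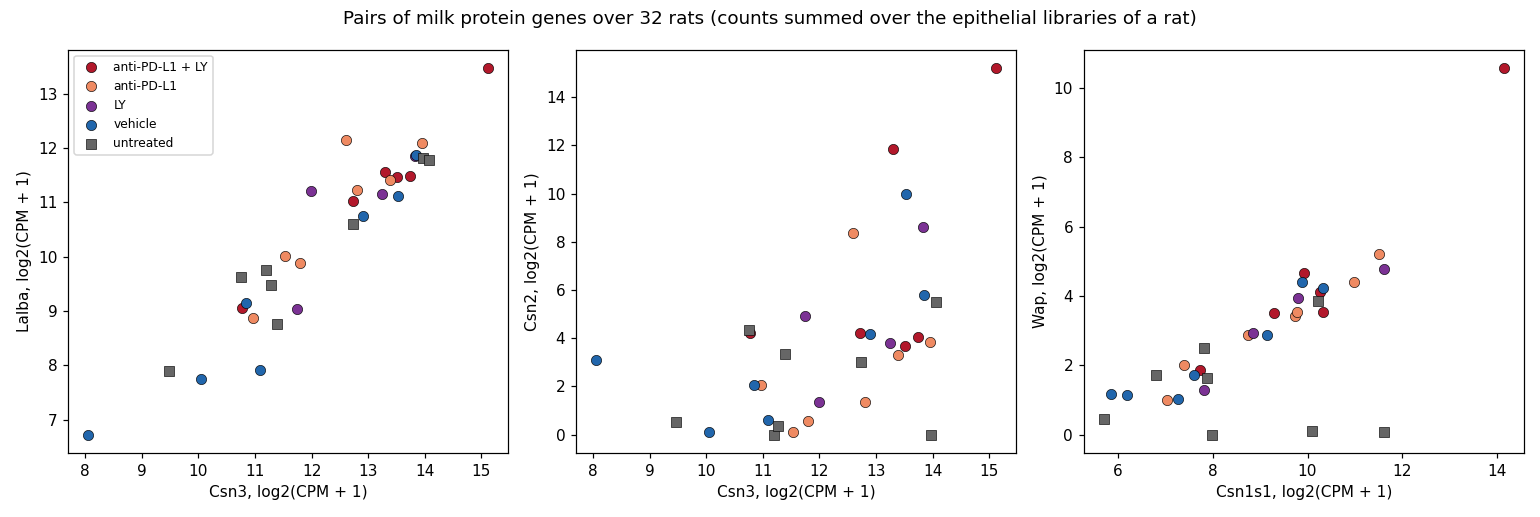
Levels of 3 gene pairs over 32 rats as log2(CPM + 1), with 1 point per rat, circles for treated or vehicle rats and squares for untreated ones. Csn3 and Lalba lie along 1 line, Csn2 scatters widely at high Csn3, and 3 untreated rats lie near 0 for Wap at 254 to 3118 CPM of Csn1s1.

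Fibroblast RNA moved against most of these genes. Over 32 rats, log2 of the summed fibroblast marker CPM had r = -0.58 with Btn1a1, -0.54 with Csn3, -0.53 with Elf5, -0.53 with Csn1s1 and -0.50 with Lalba, and rho between -0.65 and -0.57 (adjusted permutation p 0.00308 to 0.00529 for r, over 14 relations). With Csn2 it had r = -0.21 and with Wap -0.21 (adjusted permutation p 0.277 for each). The relation was strong in batch 3, with r = -0.84 for Csn3 and -0.83 for Elf5, and missed the threshold in batch 2, with r = -0.21 (permutation p 0.420) and -0.15 (permutation p 0.574). The summed luminal markers had r = 0.61 with Csn3 and 0.55 with Btn1a1 (adjusted permutation p 0.00308 and 0.00399). Combination rats had a median fibroblast sum of 918 CPM, against 6855 CPM in vehicle rats, with overlapping ranges, and its part in the arm estimates was not tested.

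Within a tumour the pattern differed. In 17 tumours with a pair of epithelial libraries, Col1a1 was higher in the library with more Epcam in 2 pairs only, with a median log2 difference of -4.84. Elf5 was likewise higher in the library with more Epcam in 2 of 17 pairs (median -0.73), Btn1a1 in 4, Csn2 in 5, Csn3, Csn1s1 and Wap in 6 and Lalba in 8. The median difference, library with more Epcam minus library with less, was below 0 for each of the 7 genes, and closest to 0 for Lalba (-0.017).

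The genes with a pattern most like that of Csn2 were none of the listed milk genes. Ranked by Spearman's rho with Csn2 over 32 rats among 13668 genes, the highest non-members were Irx5 (rho 0.79), a homeobox transcription factor, Eps8l2 (0.76), an actin-binding EPS8 relative, and Stac2 (0.71). Sh3bp2, an SH3-binding adaptor, had 0.71, Rap1gap, a GTPase activator for Rap1, 0.71, and Mybph, a myosin-binding protein, 0.70. Syt2, a synaptotagmin, had 0.70, Ppif, the mitochondrial cyclophilin D, 0.70, Pcdh9, a protocadherin, 0.70, and Atp13a4, a P-type ATPase, 0.70. Among members Csn1s1 ranked 45th and Elf5 110th, while Csn3 ranked 272nd and Wap 649th. Among listed genes Sox10, a factor of luminal progenitor cells, had 0.63 (rank 41), Slc34a2, a phosphate transporter of the alveolar membrane, 0.61 and Nfib, a transcription factor, 0.59. Socs1, an inhibitor of JAK signalling, had -0.55.

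None of the wider milk lists held a gene that passed in any comparison. Of 56 measured genes of secreted milk proteins, milk fat, lactose and transport, prolactin signalling, luminal progenitors and hormone sensing, 0 passed by edgeR in each comparison, as among all genes. At an unadjusted p under 0.05 there were 7 of 56 (12.5%) in combination against vehicle rats, beside 5.52% of all genes. There were 2 (3.57%) in anti-PD-L1 rats beside 2.70%, 2 (3.57%) in LY rats beside 6.24%, and 5 (8.93%) in stable against growing tumours beside 7.29%. In the combination comparison these included Fabp3 (log2 fold change 3.58, SE 0.88), Csn1s2a (6.93, SE 2.07), Thrsp (2.45, SE 0.80) and Glycam1 (5.19, SE 1.89), with an adjusted p of 0.883 each by edgeR. The rest were Csn1s2b, Lpo and Pigr. All 7 had their highest level in rat P34, and their estimates without P34 are not given here. In LY rats they were Glycam1 (5.23, SE 1.959), a mucin-like milk glycoprotein, and Ltf, lactoferrin (-6.40, SE 2.43), with an adjusted p of 0.745 each by edgeR, and in anti-PD-L1 rats Pgr, the progesterone receptor (1.58, SE 0.64), and Aqp5, a water channel (1.58, SE 0.69), with an adjusted p of 1.00 each by edgeR. Stable tumours had 1.28 for Tf, transferrin (SE 0.45), 0.45 for Ugp2, a UDP-glucose enzyme of lactose synthesis (SE 0.13), and -1.52 for Fabp3 (SE 0.55), with adjusted p of 0.636, 0.510 and 0.642 by edgeR. The others in stable tumours were Ehf of the prolactin list (0.87, SE 0.38) and Kit of the luminal progenitor list (1.07, SE 0.49). Their adjusted p was 0.644 and 0.653 by edgeR. Over all 56 genes the median log2 fold change was 0.17 for the combination, 0.12 for anti-PD-L1, 0.21 for LY and 0.12 for stable tumours. In the combination comparison the estimate was above 0 for 7 of 10 secreted milk genes (median 1.35), 13 of 16 milk fat genes (0.18), 4 of 7 lactose and transport genes (0.25), 7 of 13 prolactin signalling genes (0.020), 6 of 6 luminal progenitor genes (0.39) and 3 of 4 hormone-sensing genes (0.17), against 48.2% of all genes.

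Leukocyte libraries held little of this RNA. In 34 tumours with both kinds of library, Csn3, Csn1s1, Lalba, Btn1a1 and Elf5 were lower in the leukocyte library in all 34. Csn2 was lower in 29 and Wap in 30. Shares were computed only where the epithelial libraries held more than 3 counts, in 26 tumours for Csn2 and 29 for Wap. In those tumours the leukocyte levels of Csn2 and Wap reached at most 69.4% and 133% of the epithelial level, in P8T1 and C9T1. The epithelial libraries there had 0.900 CPM of Csn2 and 1.42 CPM of Wap. Among tumours without a share, Wap was higher in the leukocyte library in C10T2 (18 counts against 0), C7T1 (5 against 0) and P5T2 (11 against 3). Csn2 was higher there in P24T2 (2 against 0) and C17T4 (1 against 0). The leukocyte level was a median 0.401% of the epithelial level for Csn3, 0.595% for Csn1s1, 0.482% for Lalba, 0.338% for Btn1a1 and 0.502% for Elf5. Epithelial genes outside the group had medians of 1.46% for Epcam, 1.01% for Krt8 and 2.05% for Krt18. Csn2 had no count in 22 of the 34 leukocyte libraries. The highest member levels in leukocyte libraries were all in P22T2, the tumour with more columns than labels, at 96.99 CPM of Csn2, 1352 CPM of Csn3 and 428 CPM of Lalba. It also had the highest Epcam, 197 CPM. Without it the highest Csn3 was 290 CPM, in P7T1, and the median share for Csn3 was 0.382%.

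Pooled over batches, levels in the 2 kinds of library followed each other for Csn3, Lalba, Btn1a1 and Csn1s1. Over 26 rats, r on log2(CPM + 1) was 0.64 for Csn3, 0.66 for Lalba, 0.69 for Btn1a1 and 0.54 for Csn1s1, with rho of 0.64, 0.66, 0.76 and 0.46 (adjusted permutation p 0.00107, 0.00102, 0.00102 and 0.00768 for r, over 7 genes). Within batches r for Csn3 was 0.67 in batch 2 and 0.77 in batch 3 (12 rats each), and 0.29 in batch 1 (7 rats). Batches 2, 3 and 1, in this order, gave 0.68, 0.90 and 0.18 for Lalba. They gave 0.62, 0.61 and 0.61 for Btn1a1, and 0.58, 0.82 and -0.31 for Csn1s1. Csn2 had r = 0.40 and rho = 0.24 (adjusted permutation p 0.0661 and 0.268), and r = 0.32 without P22T2. Elf5 had r = 0.36 (adjusted permutation p 0.0781) and rho = 0.43 (adjusted permutation p 0.0428), and Wap had r = -0.020.

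The leukocyte library headed P34T1 did not share the casein profile of the epithelial libraries headed P34T1. Column headers give the tumour alone, so whether this library came from the same tumour could not be checked, and its values against the epithelial level hold only if it did. It held 0 counts of Csn2 and 0 of Wap among 14884590 counts, although the epithelial libraries of P34T1 held 534240 counts of Csn2 and 21512 of Wap. A count of 3 there would be 0.000531% of the epithelial Csn2 level and 0.0132% of the epithelial Wap level. Csn3 was at 0.368% of its epithelial level with 1942 counts, Lalba at 0.219% with 372 counts, and Csn1s1 at 0.0821% with 220 counts. Epcam was at 4.09% and Krt8 at 1.93%. In untreated tumour C10T2 the epithelial library had 253 CPM of Csn2 and the leukocyte library 0, whereas in anti-PD-L1 tumour P29T1 the leukocyte library had 8.79 CPM of Csn2, 1.91% of the epithelial level.

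**Figure D5:**
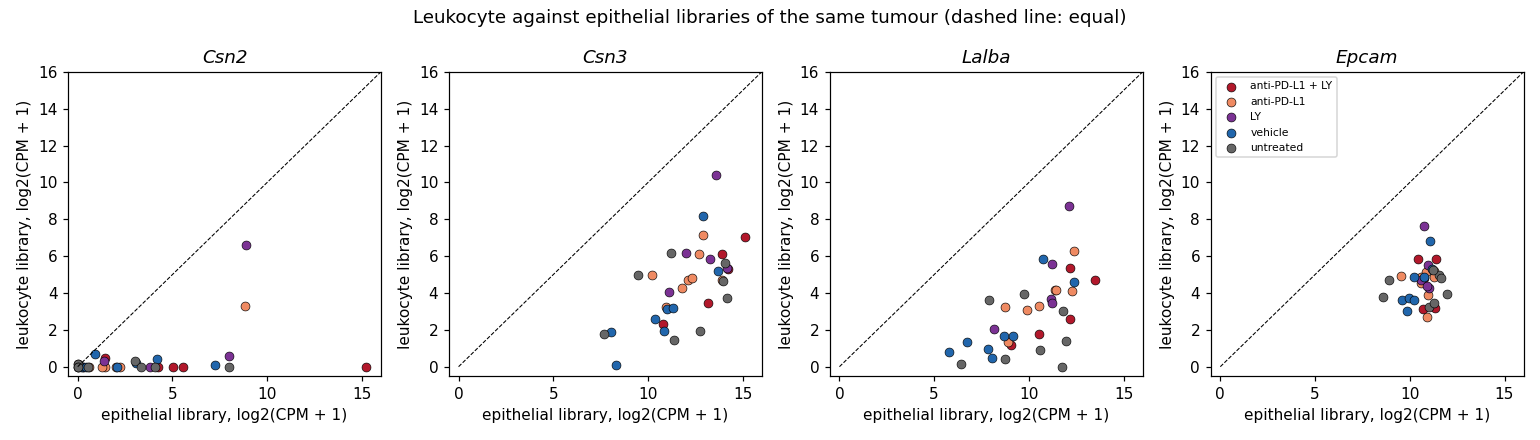
Level in the leukocyte library against the epithelial libraries of the same tumour as log2(CPM + 1), for 34 tumours; the dashed line marks equal levels. Csn3, Lalba and Epcam lie below the line in all 34 tumours, and the tumour at the far right for Csn2, P34T1, is at 0 in the leukocyte library under that header, which may not be of the same tumour.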

How the data were processed

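RNA of sorted cells from dissociated rat mammary tumours was sequenced after low-input SMARTer amplification, per the labels' protocols. The authors deposited whole-number counts per gene symbol in 1 table. The submitters' processing notes name STAR, FastQC and rn6. Which tool counted reads, on what annotation and with what strand setting is not given in the sources used here; reads of overlapping or nearly identical genes may therefore be shared. Of 108 columns, 1 without a tumour name was not used. The deposited sample table gives growth class and batch, and tumour size as a score with no stated unit. Totals were 2353564 to 29727437 counts per library used.

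Counts were summed per rat for treatment and per tumour for growth class, with the arm as a term. Tests used edgeR 4.0.16 (TMM, filterByExpr, robust quasi-likelihood F test) in R 4.3.3, with Benjamini-Hochberg adjustment at 0.05. SEs were derived from the log2 fold change and F. Alternatives used DESeq2 1.42.0 and limma 3.58.1. Scripts were tested on simulated counts. Permutation tests were two-sided. Where tumours share a rat, p-values measure the spread between tumours. Counting limits of 3 counts cover counting error only. RefSeq GRCr8 gave start regions, and 15501 of 17455 symbols matched its gene table. Named genes are the 7 members, up to 4 listed genes per list and the 10 genes most like Csn2. The members and lists were chosen with earlier results of these data known.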

Additional observations from a re-analysis of the deposited data

Results flagged for a closer look

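Each arm was examined for a rat that lay far from the others, over 35 groups of 4 to 8 rats (7 genes in 5 groups), of which chance marks about 1 in 20. There were 2 such values. Wap in rat P34 of the combination arm, at 1530 CPM, lay above the other 5 rats by 0.677 of the whole range of log2(CPM + 1). Btn1a1 in rat P33 of the combination arm, at 10.4 CPM, lay below the other 5 by 0.691 of the range. Rat P33 also had the lowest Csn3 of that arm, at 1757 CPM, and the lowest Elf5, at 5.36 CPM.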

How the results depend on the processing

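Of 283 log2 fold changes of single genes recomputed with other settings, 269 kept their direction and their side of the threshold, and 4 more, Wap by DESeq2, had no adjusted p. Batch 2 alone, batch 3 alone, the rat block and the fits without the P22T2 columns were chosen after seeing the data. DESeq2 called 1 member in stable against growing tumours, and every other setting called 0 members in all 4 comparisons. Directions turned as follows, and the cause was not tested. In stable against growing tumours Elf5 became -0.037 with Epcam of at least 1000 CPM, -0.18 with libraries as units and the rat as a random effect (limma voom), and -0.41 in batch 2 alone. Lalba there became 0.32 with voom and 0.54 in batch 3 alone, where Wap became 0.36. In LY against vehicle rats Csn2 became 2.88 with voom, 2.19 with batch as a term and 3.83 in batch 2 alone, and Lalba -0.21 in batch 3 alone. In anti-PD-L1 against vehicle rats Btn1a1 became -0.043 in batch 3 alone.

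Leaving out each rat in turn, 657 of 672 values kept their direction. Ranges that crossed 0 were -5.41 to 1.83 (Csn2), -0.26 to 0.61 (Csn3) and -0.041 to 0.84 (Btn1a1) for anti-PD-L1, -3.67 to 3.09 (Csn2), -0.050 to 0.85 (Csn3) and -0.091 to 1.36 (Wap) for LY, and -0.21 to 0.25 (Lalba) and -0.095 to 0.46 (Elf5) for stable tumours. Correlations passed in 21 pairs with a prior count of 0.5 and in 20 without the 2 farthest rats. The median leukocyte share of Csn2 was 0% with Ptprc of at least 600 CPM and without P22T2. Gland libraries were not analysed here, so that comparison was not run. Rats belong to 1 arm each, so treatment has no pairs. For growth class, the fit with the rat as a block used 6 tumours of 3 rats and called 0 members; Lalba became 0.19 and Wap 0.62 there, and Csn2 was -4.41.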
